A study of Mus musculus with 6 samples.

Results

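Solute carriers are the large superfamily of membrane transporters that move amino acids, sugars, nucleotides, metals, inorganic ions, vitamins and other small molecules across the plasma membrane and the membranes of organelles. The genes described here are the symbols of the deposited count table that begin with Slc and a digit. Slc7a11, Slc2a1, Slc40a1, Slc11a1 and Slc11a2 were left out by name. Of 368 such symbols, 153 had 60 or more counts summed over the 6 libraries and are the members, out of 24454 symbols in the table. They were grouped into 12 substrate classes by their family number. The RNA came from cultured primary peritoneal macrophages (phagocytes that live in the abdominal cavity) of male wild-type C57BL6/J mice aged 6 to 8 weeks. PolyA-enriched RNA was sequenced in 3 groups of 2 libraries. One group received vehicle for 5 h. Another received the bacterial endotoxin LPS at 10 ng/ml for 4 h. The third received SGA360, which binds the aryl hydrocarbon receptor (AHR), at 10 µM for 1 h and then the same LPS treatment, and is written SGA360+LPS. The labels give no solvent pretreatment for the LPS group and do not tell if a group's libraries are separate animals or cultures, so p-values reflect only the spread between these libraries, which can be technical.

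Solute carriers are named by family number and member, and a family usually shares a substrate type. Some work by facilitated diffusion, while others couple uptake to a sodium, proton or chloride gradient or exchange one solute for another. In macrophages, transporters at the plasma membrane supply arginine, glutamine, glucose and metals, those of the mitochondrial inner membrane link the cytosol with respiration, and those of lysosomes and phagosomes return the products of digestion to the cytosol. Endotoxin acts through the receptor TLR4 and changes the metabolism of these cells. AHR is a ligand-activated transcription factor that can alter inflammatory gene expression.

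The libraries held 7726973 to 9529817 counts, of which 1.07% to 1.17% fell on the 153 members. Vehicle replicate 1 stood apart: 10001 symbols were detected there, while the others had 12282 to 12643, and ribosomal Rn45s made up 4.92% of its counts, elsewhere 0.2199% to 0.684%. In that library 6 members had no count, and 146 members had a count in every library. Of the macrophage markers, Lyz2, which encodes lysozyme, was at 19763 CPM in vehicle (counts scaled to library size), while Itgam and Ctss were at 0 in every library and Lgals3 at 0.312 CPM in vehicle, each with 2 transcript rows. Of the 7 tested with LPS Adgre1 (1.30) and Cd14 (2.98) rose and Fcgr1 (−2.39), Mertk (−2.14) and Csf1r (−0.34) fell, as log2 fold changes. The cultures also held RNA of other cells: summed over 8 fibroblast markers the level was 4419 to 5379.8 CPM, nearly all from the collagen genes Col1a1, Col1a2 and Col3a1. Summed over 11 mesothelial markers, of which Gpm6a was at 0, it was 536 and 569 CPM in vehicle and 376 to 397 CPM in the 4 LPS-treated libraries. Of 10 tested mesothelial markers 4 fell with LPS, and of 6 tested fibroblast markers 1 fell, where 17% of all genes tested fell. The part of these cells in the falls described next was not tested. In bulk RNA, fewer cells of a type and less RNA per cell cannot be told apart.

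All 153 members passed the filter on low counts and were tested. They were chosen by the sum of their counts over all libraries, and 4 of the 6 libraries were treated with LPS, so that the sum favours genes that are high with LPS. No member had 0 counts in both vehicle libraries. Just above the threshold lay Slc25a27, Slc16a5 and Slc10a6 with 60, 62 and 69 counts, and just below it Slc39a2, Slc37a4 and Slc12a5 with 49, 50 and 57. Of the 215 symbols below the threshold 119 had no count at all. Symbols listed with several transcript rows were common among these: 95 of the 368 symbols have several rows, and 18 of those 95 became members. Such values are uncertain, since they may hold only reads specific to an isoform. For that reason no statement is made on the expression of Slc3a2 (25 counts in all), the shared heavy chain of several amino acid transporters, Slc16a3 (1), a lactate exporter, Slc7a1 (2), an arginine transporter, Slc31a2 and Slc37a2 (20 each) or Slc6a8 (0), the creatine transporter, each with 2 or 3 rows. A further 5 members are not transporters by annotation: Slc9a3r1 and Slc9a3r2 encode scaffold proteins, Slc4a1ap an adaptor protein, Slc7a6os a gene next to Slc7a6, and Slc2a4rg-ps is a pseudogene.

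Levels of different genes were compared per kilobase of exon, among the 135 members with 1 transcript row. The highest mean level was that of Slc25a5, an ADP/ATP carrier of mitochondria, at 420.3 to 509 CPM per kilobase over the 6 libraries. Slc25a3, the mitochondrial phosphate carrier, stood at 375 to 403 and the other ADP/ATP carrier gene Slc25a4 at 243 to 268 CPM per kilobase. Slc15a3, a lysosomal transporter of peptides and histidine, was at 170.4 and 189 CPM per kilobase in vehicle and at 543 to 580.4 in the 4 LPS-treated libraries, above Slc25a5 in each of those. The scaffold gene Slc9a3r1, the zinc importer gene Slc39a1, the haem transporter gene Slc48a1 and the taurine transporter gene Slc6a6 followed, with means over all libraries of 215, 204, 178 and 119.9 CPM per kilobase.

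LPS was first compared with vehicle, for the effect of endotoxin alone. By edgeR's quasi-likelihood test with Benjamini-Hochberg adjustment over 9389 genes, 35 of the 153 members rose (22.9%, against 19.4% of all genes tested) and 29 fell (19%, against 17%). A further 89 did not pass the threshold of 0.05 on the adjusted p. Both shares lay near those of all genes. Of the members chosen by this sum, 7 had under 20 counts in the 2 vehicle libraries (Slc7a2, Slc2a6, Slc35g2, Slc6a12, Slc13a3, Slc39a14 and Slc10a6), of which the first 5 rose and 0 fell, and 4 had under 40 in the 4 treated libraries, of which Slc27a6 fell. These calls are given as descriptions. Among the other 142 members, a set chosen after the data were seen, 30 rose (21.1%) and 28 fell (19.7%). The median log2 fold change of the 153 was 0.02, against −0.01 for all genes. Changes over 2-fold were seen in 12 of the rises and 8 of the falls of the 153 members, against 652 rises and 567 falls of the 9389 genes tested. Both LPS libraries lay above both vehicle libraries for 50 members (32.7%, against 33.1% of all genes) and below them for 46 (30.1%, against 32.7%). By level, 23 rises and 14 falls were among the 55 members with a mean of 50 CPM or more. Another 4 and 2 were among the 33 under 5 CPM, whose median SE was 0.59 on the log2 scale. The shares of all genes at these levels were not counted. In all, 35 of the 64 calls, 22 rises and 13 falls, held with each library left out in turn and under every other setting tried in which the gene was tested. With 1 library left out the rises numbered 22 (without LPS replicate 2) to 55 (without vehicle replicate 2), and the falls 16 (without LPS replicate 2), 17 (without LPS replicate 1) up to 38 (without vehicle replicate 2). Without vehicle replicate 1 they numbered 37 and 32.

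**Figure D1:**
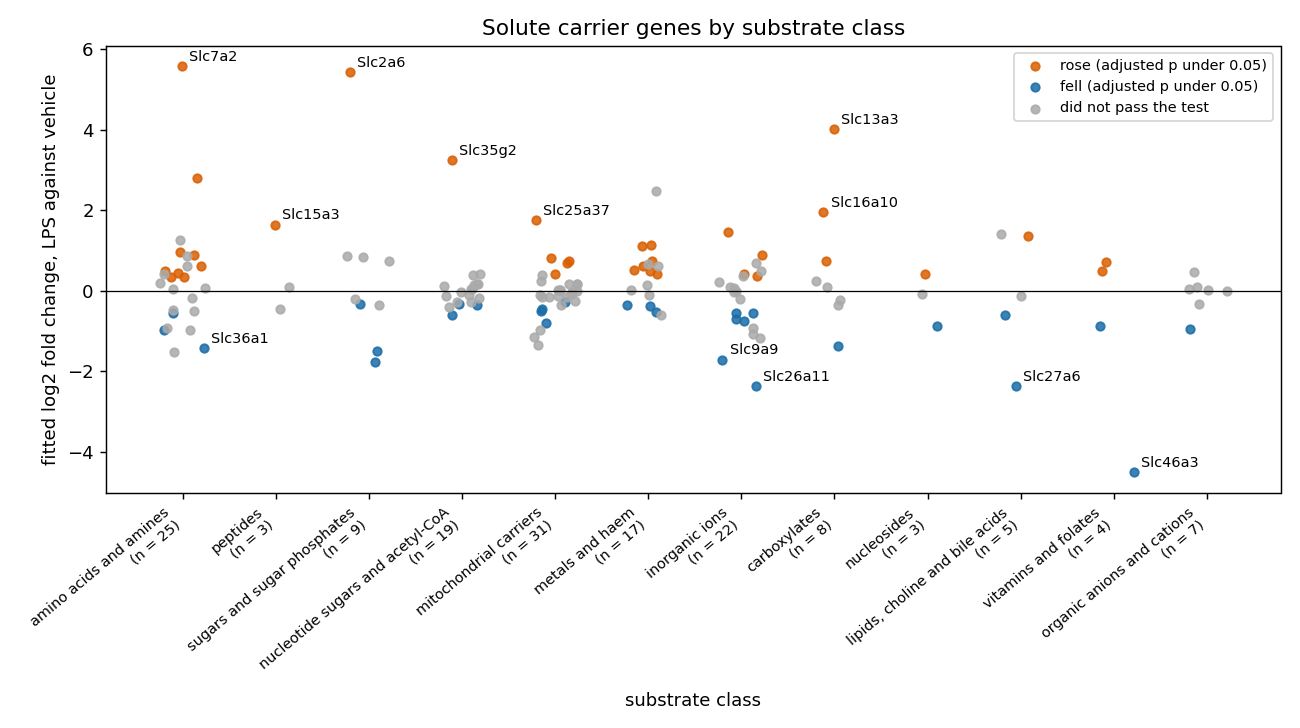
Fitted log2 fold change of each of the 153 solute carrier genes in LPS against vehicle (vertical axis), grouped by substrate class (horizontal axis, n members each); orange points rose and blue points fell with an adjusted p under 0.05, grey points did not pass. The 35 rises and 29 falls were spread over the classes, with Slc7a2 and Slc2a6 at the top, whose fitted values rest on 1 and 2 vehicle counts, and Slc46a3 at the bottom.

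The promoters of 5 members are shown as examples. Slc13a3 and Slc16a10 were among the largest rises with LPS, and Slc46a3 and Slc36a1 among the largest falls. Slc30a1 had the smallest unadjusted p between SGA360+LPS and LPS, where no member passed the adjusted threshold. These 5 promoters were chosen after the values of their genes were seen. Each is the 250 bases before the RefSeq start nearest to the deposited transcript, in the GRCm38.p6 build, 5′ to 3′ on the gene's strand. Capitals mark matches, on either strand, of any of 6 motifs: the kappaB consensus, the interferon-stimulated response core (GAAA, any 2 bases, GAAA), the AP-1 site TGANTCA, the xenobiotic response core GCGTG that AHR binds, the metal response core TGCACNC or TGCGCNC, and the E-box CACGTG.
Slc13a3 chr2:165473198-165473447 (- strand): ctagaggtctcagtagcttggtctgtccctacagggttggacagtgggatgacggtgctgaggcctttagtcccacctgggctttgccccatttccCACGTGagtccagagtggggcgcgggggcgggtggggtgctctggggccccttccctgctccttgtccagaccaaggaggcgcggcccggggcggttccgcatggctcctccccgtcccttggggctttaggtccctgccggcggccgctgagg
Slc16a10 chr10:40142255-40142504 (- strand): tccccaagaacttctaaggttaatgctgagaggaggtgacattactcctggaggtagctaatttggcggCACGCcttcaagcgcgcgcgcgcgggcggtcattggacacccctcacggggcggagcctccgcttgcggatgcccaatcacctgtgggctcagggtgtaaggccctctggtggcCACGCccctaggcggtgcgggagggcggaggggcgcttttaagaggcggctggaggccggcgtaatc
Slc46a3 chr5:147894816-147895065 (- strand): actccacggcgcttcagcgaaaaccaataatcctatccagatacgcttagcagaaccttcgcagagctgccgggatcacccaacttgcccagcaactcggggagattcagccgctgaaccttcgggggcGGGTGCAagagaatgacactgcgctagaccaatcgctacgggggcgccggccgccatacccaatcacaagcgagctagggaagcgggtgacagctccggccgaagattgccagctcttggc
Slc36a1 chr11:55204090-55204339 (+ strand): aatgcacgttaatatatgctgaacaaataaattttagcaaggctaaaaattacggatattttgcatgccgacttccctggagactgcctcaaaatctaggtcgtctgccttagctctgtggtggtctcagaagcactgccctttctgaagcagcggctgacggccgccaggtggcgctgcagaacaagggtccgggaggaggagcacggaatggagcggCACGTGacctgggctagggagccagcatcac
Slc30a1 chr1:191906531-191906780 (+ strand): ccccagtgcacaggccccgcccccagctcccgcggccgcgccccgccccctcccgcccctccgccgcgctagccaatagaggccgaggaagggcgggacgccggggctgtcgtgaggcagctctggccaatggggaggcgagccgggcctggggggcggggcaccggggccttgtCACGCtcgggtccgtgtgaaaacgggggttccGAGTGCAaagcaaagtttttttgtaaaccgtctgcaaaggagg

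In these windows the E-box lay 154 to 149 bases before the start of Slc13a3 and 31 to 26 bases before that of Slc36a1. The xenobiotic response core stood, on the opposite strand, at 181 to 177 and 67 to 63 bases before the start of Slc16a10 and at 75 to 71 before that of Slc30a1. The metal response core, also on the opposite strand, stood at 43 to 37 bases before the start of Slc30a1 and 121 to 115 before that of Slc46a3. No match overlapped another, and the kappaB, interferon and AP-1 motifs had no match in these 5 windows. Over all 32817 RefSeq windows of this length the E-box was held by 6.02%, the xenobiotic core by 28.1%, the metal response core by 21.4% and the kappaB consensus by 7.25%. A window was found for 112 of the 153 members, of which 17 held the E-box, 54 the xenobiotic core, 35 the metal response core and 9 the kappaB consensus. Of the 21 windows of members that rose with LPS 2 held the kappaB consensus, and of the 21 of members that fell 1 did. In the same order, the E-box was held by 3 and 4, the xenobiotic core by 9 and 12 and the metal response core by 6 and 7. A match is a run of letters and not a measured site.

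In the mm10 build, with starts counted from 1, the deposited transcripts of these genes span chromosome 2 from 165405295 to 165473197 (minus strand) for Slc13a3, chromosome 10 from 40033535 to 40142254 (minus strand) for Slc16a10, chromosome 5 from 147878441 to 147894802 (minus strand) for Slc46a3, chromosome 11 from 55204340 to 55236330 (plus strand) for Slc36a1 and chromosome 1 from 191906781 to 191913247 (plus strand) for Slc30a1. Slc15a3 spans chromosome 19 from 10842544 to 10857915 (plus strand) and Slc25a37 chromosome 14 from 69241851 to 69285103 (minus strand). All of them are annotated as protein-coding, and the counts are of reads assigned to the whole transcript. The spans of 20 members overlap another protein-coding gene, among them Slc15a3 (Tmem132a), Slc31a1 (Cdc26), Slc48a1 (Hdac7), Slc39a6 (Elp2), Slc20a2 (Smim19), Slc7a5 (Gm20388) and Slc6a9 (Ccdc24 and B4galt2). The strand setting of the counting is unknown here, and the reads of overlapping partners cannot be told apart. Cdc26 was at 35.4 CPM in vehicle and 42.4 CPM with LPS, and Elp2 at 121 and 96.02 CPM (means of 2), while Hdac7, Smim19 and B4galt2, each with several rows, had at most 1 count in all.

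Among 25 members of the amino acid and amine families 9 rose (36%) and 3 fell (12%), against 19.4% and 17% of all genes tested. The median log2 fold change was 0.33, against −0.01 for all genes. Slc7a5, the light chain of the main exchanger of large neutral amino acids, stood at 103 and 132 CPM in vehicle, 215 and 218 with LPS and 238 and 246 with SGA360+LPS. Both LPS libraries lay above both vehicle libraries, and the rise passed the test (log2 fold change 0.88, SE 0.105, adjusted p = 1.05e-04). Slc1a5, which imports glutamine and other neutral amino acids, went from 156 and 155 to 195 and 197 CPM (0.34, adjusted p = 0.00503). The vehicle values were nearly equal, and the rise was small. Slc43a3, grouped here by its family number but known as a transporter of purine nucleobases, rose by 0.61 (adjusted p = 6.44e-04). Slc7a8, another exchanger of neutral amino acids, rose by 0.33 and Slc7a6 by 0.49. The call of Slc7a8 was lost on leaving out LPS replicate 2 (0.30, adjusted p = 0.0519), and that of Slc7a6 on leaving out LPS replicate 2 (0.47, adjusted p = 0.0976). Among the rises was also Slc7a6os (0.44, adjusted p = 0.0389), which is not a transporter and lost its call on leaving out either LPS library, vehicle replicate 1 or either SGA360+LPS library (log2 fold changes of 0.32 to 0.55, adjusted p of 0.0628 to 0.241). Slc6a9, a glycine transporter, went from 6.93 and 11.6 to 16.6 and 19.2 CPM (0.95, adjusted p = 0.00996) and lost its call on leaving out LPS replicate 2 (0.86, adjusted p = 0.0796).

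Slc7a2, which imports arginine and other cationic amino acids, had 0 and 1 counts in vehicle, 23 and 31 with LPS and 18 and 20 with SGA360+LPS. It was close to absent without endotoxin and low with it. The ratio of LPS to vehicle was 60.1-fold, with a 95% exact interval of 10.3 to 2419 that covers counting error only (adjusted p = 7.43e-04). The gene reached 60 counts only with the treated libraries, so these values are a description. It has 2 transcript rows, so its level is uncertain. Slc6a12, a transporter of betaine and GABA, had 0 and 11 counts in vehicle against 33 and 36 with LPS (adjusted p = 0.0217). It too reached 60 counts only with the treated libraries. Its call was lost on leaving out either LPS library or either SGA360+LPS library (log2 fold changes of 2.75 to 2.89, adjusted p of 0.0565 to 0.106), and the fitted value ran up to 8.14 without vehicle replicate 2, which leaves a vehicle count of 0, so that this value depends on the prior count and is no bound.

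The abundant taurine transporter gene Slc6a6 moved the other way, from 1010.4 and 1149 CPM in vehicle to 536 and 567 with LPS and 569 and 618 with SGA360+LPS (log2 fold change −0.97, SE 0.0791, adjusted p = 6.02e-06 for LPS). All 4 treated libraries lay below both vehicle libraries. Slc36a1, a proton-coupled exporter of small amino acids from lysosomes, stood at 149 and 166 CPM in vehicle, 56.5 and 59.8 with LPS and 58.03 and 64.97 with SGA360+LPS, again with no overlap (log2 fold change −1.44, SE 0.0985, adjusted p = 1.59e-06). Its promoter is the one shown with an E-box close to the start, and the part of that motif in the fall was not tested. Slc38a9, a lysosomal arginine sensor, fell by 0.55 on the log2 scale and lost its call on leaving out either LPS library, vehicle replicate 2 or either SGA360+LPS library (log2 fold changes of −0.69 to −0.33, adjusted p of 0.0737 to 0.266). The sodium-coupled Slc38a2 (−0.19, adjusted p = 0.0651) and Slc38a7 (0.07, adjusted p = 0.653), the most abundant members with no call, did not pass the test. Summed over the class the level was 2241 and 2483 CPM in vehicle, 1919 and 2028 CPM with LPS and 2041 and 2108 CPM with SGA360+LPS. Of the vehicle level, a mean of 1079.6 CPM was that of Slc6a6. In CPM this gene fell by more than the class sum did, so the other members together were higher with LPS than in vehicle. The count of rises was 4 without LPS replicate 2, and that of falls 5 without vehicle replicate 1.

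**Figure D2:**
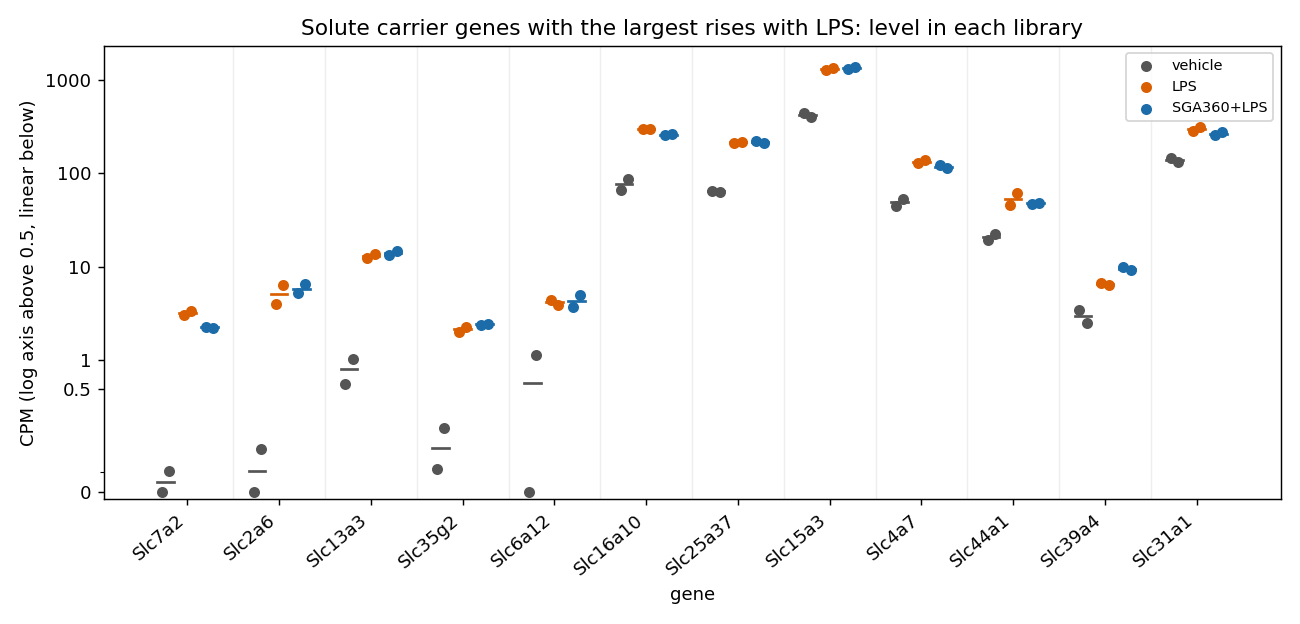
Level in CPM (vertical axis, logarithmic above 0.5 and linear below) of the 12 members with the largest rises past the threshold and separated groups, in each library; points are libraries, lines the mean of 2, colours the treatment groups. For each gene both LPS libraries and both SGA360+LPS libraries lie above both vehicle libraries. Slc7a2, Slc2a6, Slc35g2, Slc6a12 and Slc13a3 reached 60 counts only with the treated libraries.

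Of the 3 peptide transporter genes, Slc15a3 rose (19.4% of all genes tested rose). It stood at 444 and 401 CPM in vehicle, 1278 and 1341 with LPS and 1309 and 1366 with SGA360+LPS. Both LPS libraries were above both vehicle libraries, and the replicates of each group lay close together (log2 fold change 1.63, SE 0.071000, adjusted p = 5.57e-08). The gene encodes a proton-coupled peptide and histidine transporter of lysosomes. Its overlapping neighbour Tmem132a rose as well, from a mean of 104 to 179.7 CPM (0.79, adjusted p = 2.93e-04), and what reads they share was not tested. Its relative Slc15a4, an endolysosomal transporter needed for signalling by nucleic acid-sensing receptors, stood at 87.6 and 95.1 CPM in vehicle and 101 and 92.9 CPM with LPS (log2 fold change 0.08, SE 0.0904, adjusted p = 0.511). The groups overlapped. Slc15a2, a peptide importer with 2 transcript rows, was at 1.79 and 2.91 CPM in vehicle and 1.46 and 1.97 CPM with LPS (−0.45, adjusted p = 0.561). No other member of the set had a smaller adjusted p than Slc15a3 in this comparison.

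Among 9 members of the sugar and sugar phosphate families 1 rose (11.1%) and 3 fell (33.3%), against 19.4% and 17% of all genes tested. Slc2a6, an intracellular relative of the glucose transporters, had 0 and 2 counts in vehicle, 30 and 58 with LPS and 41 and 58 with SGA360+LPS, all in 1 of its 2 transcript rows. The ratio of LPS to vehicle was 49-fold, with a 95% exact interval of 13.2 to 411 for counting error only (adjusted p = 2.77e-04). The gene reached 60 counts only with the treated libraries, so these values are a description. Slc2a8, another intracellular hexose transporter, went the other way, from 30.5 and 33.6 to 11.4 and 11.04 CPM (log2 fold change −1.51, SE 0.157, adjusted p = 3.71e-05). The groups were well apart. Slc45a4 was at 7.82 and 9.99 CPM in vehicle and 2.79 and 2.41 CPM with LPS (−1.78, adjusted p = 0.00386), has 2 rows, and lost its call on leaving out LPS replicate 2 (−1.65, adjusted p = 0.0502). Slc50a1, a sugar transporter of the Golgi apparatus, fell by 0.34 on the log2 scale (adjusted p = 0.0474) and lost its call on leaving out either LPS library or either SGA360+LPS library (log2 fold changes of −0.33 to −0.32, adjusted p of 0.104 to 0.252). Slc2a3, a glucose importer, at 5.92 and 11.1 CPM in vehicle and 7.98 and 5.36 CPM with LPS, overlapped between groups (−0.37, adjusted p = 0.446), as Slc2a10 did. The myo-inositol importer Slc5a3 (0.72, adjusted p = 0.0777) and Slc37a3 (−0.21, adjusted p = 0.174) did not pass. Nor did the pseudogene Slc2a4rg-ps (0.84, adjusted p = 0.295), which is counted in the class here and with libraries left out. The class had 4 rises without vehicle replicate 2, and 1 fall without LPS replicate 2.

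The 19 members of the nucleotide sugar and acetyl-CoA families were grouped by family number alone, so a member's own substrate and membrane can differ. They had 1 rise (5.26%) and 3 falls (15.8%), against 19.4% and 17% of all genes tested. Their median absolute log2 fold change was 0.193, against 0.357 for all genes tested. Slc35f6, a lysosomal family member, stood at 207 and 181 CPM in vehicle and 129.7 and 125 CPM with LPS (log2 fold change −0.61, SE 0.0849, adjusted p = 3.04e-04) with no overlap. Slc35b2, which imports the sulfate donor PAPS, fell by 0.36 on the log2 scale and lost its call on leaving out either LPS library (log2 fold changes of −0.36 to −0.33, adjusted p of 0.0843 to 0.0982). Slc35b4 fell by 0.33 and lost its call on leaving out either LPS library, vehicle replicate 1 or either SGA360+LPS library (log2 fold changes of −0.33 to −0.16, adjusted p of 0.0748 to 0.187). Slc35g2 had 1 and 3 counts in vehicle, against 15 and 21 with LPS (adjusted p = 0.00656). It reached 60 counts only with the treated libraries, so this value is a description. Its call was lost on leaving out either LPS library (log2 fold changes of 3.15 to 3.36, adjusted p of 0.0603 to 0.09). The more abundant Slc35e1 (111 and 122 CPM in vehicle, 129 and 134 with LPS) and Slc35b1 (78.2 and 71.6 CPM in vehicle, 76.9 and 77.8 with LPS) did not pass the test. The single rise was lost without LPS replicate 1 or 2, and 2 and 3 rises were called without vehicle replicate 1 or 2. The falls numbered 1 without LPS replicate 1 or 2.

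Of 31 mitochondrial carrier family genes 5 rose (16.1%), 4 fell (12.9%) and 22 did not pass the test, where 19.4% of all genes tested rose and 17% fell. Slc25a37, which encodes mitoferrin and brings iron into mitochondria, stood at 65.4 and 62.7 CPM in vehicle, 213 and 218 with LPS and 223 and 209 with SGA360+LPS. Replicates differed little and the groups were far apart (log2 fold change 1.75, SE 0.078000, adjusted p = 6.67e-08). Its relative Slc25a28, the other mitoferrin gene, stood at 32.2 and 42.98 CPM in vehicle and 43.9 and 40.7 CPM with LPS with overlapping groups (0.17, adjusted p = 0.416). Slc25a10, the dicarboxylate carrier, went from 51.3 and 67.2 to 104 and 105 CPM (0.82, adjusted p = 4.27e-04). Slc25a33, a pyrimidine nucleotide carrier, rose by 0.74 and the peroxisomal Slc25a17 by 0.70. Slc25a46, of the outer membrane, rose by 0.42 and lost its call on leaving out LPS replicate 2 or SGA360+LPS replicate 2 (log2 fold changes of 0.24 to 0.44, adjusted p of 0.0503 to 0.322).

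Among the falls in this family, Slc25a45 went from 48.8 and 49.4 to 28.6 and 27.2 CPM (−0.82, adjusted p = 9.47e-04). Slc25a12, an aspartate/glutamate carrier, was at 83.4 and 63.2 CPM in vehicle and 47.1 and 54.99 CPM with LPS (−0.52, adjusted p = 0.0174) and lost its call on leaving out LPS replicate 1 or vehicle replicate 1 (log2 fold changes of −0.39 to −0.29, adjusted p of 0.0577 to 0.164). Slc25a24, a carrier of ATP-magnesium and phosphate, fell by 0.45 on the log2 scale and lost its call on leaving out LPS replicate 2 (−0.42, adjusted p = 0.0527). Slc25a51, the NAD carrier, was at 179.6 and 193 CPM in vehicle and 145 and 160.4 CPM with LPS (−0.29, adjusted p = 0.0189) and lost its call on leaving out LPS replicate 1 or either SGA360+LPS library (log2 fold changes of −0.27 to −0.20, adjusted p of 0.0639 to 0.24). The most abundant carriers showed no call: Slc25a3 was at 610.4 and 587 CPM in vehicle and 604 and 613 CPM with LPS (log2 fold change 0.02, SE 0.0624, adjusted p = 0.812). Slc25a5 was at 574 and 546 CPM in vehicle and 601 and 661 CPM with LPS (0.17, adjusted p = 0.0858) and was called without vehicle replicate 1 (0.23, adjusted p = 0.0332). The citrate carrier gene Slc25a1 was at 149.6 and 154 CPM in vehicle and 157 and 149.8 CPM with LPS (log2 fold change 0.02, SE 0.0753, adjusted p = 0.896), so that its 2 groups overlapped. The falls numbered 2 without LPS replicate 1.

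Among 17 genes for carriers of zinc, copper, magnesium and haem 7 rose (41.2%) and 3 fell (17.6%), against 19.4% and 17% of all genes tested. The median log2 fold change was 0.48, against −0.01 for all genes. Slc31a1, the copper importer, stood at 144 and 132 CPM in vehicle, 283 and 315 with LPS and 254 and 279 with SGA360+LPS, with the LPS libraries above both vehicle libraries (log2 fold change 1.11, SE 0.0854, adjusted p = 3.78e-06). Slc48a1, which carries haem out of phagolysosomes, went from 302 and 339 to 492 and 485 CPM (log2 fold change 0.61, SE 0.0711, adjusted p = 8.62e-05). The zinc importer gene Slc39a1 went from 352 and 324 to 554 and 566 CPM (log2 fold change 0.73, SE 0.0655, adjusted p = 1.26e-05). Each of these 3 held its call with every library left out. Slc39a6, another zinc importer, rose by 0.50 and the magnesium transporter gene Slc41a2 by 0.48. Slc39a4 was low, at 3.46 and 2.497 CPM in vehicle and 6.65 and 6.45 CPM with LPS (1.14, adjusted p = 0.0153), and lost its call on leaving out either LPS library (log2 fold changes of 1.14 to 1.17, adjusted p of 0.0787 to 0.0799). Slc30a7, which loads zinc into the Golgi apparatus, rose by 0.41 and lost its call on leaving out either LPS library (log2 fold changes of 0.36 to 0.49, adjusted p of 0.0526 to 0.163).

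The zinc importer gene Slc39a10 fell, unlike Slc39a1, Slc39a4 and Slc39a6, from 81.8 and 80.02 to 52.5 and 59.4 CPM (−0.53, adjusted p = 0.00282). That call was lost on leaving out LPS replicate 1 (−0.42, adjusted p = 0.0556). Slc30a5, a zinc loader of the secretory pathway, was at 115 and 100.003 CPM in vehicle and 81.8 and 86.7 CPM with LPS (−0.35, adjusted p = 0.0183) and lost its call on leaving out either LPS library, vehicle replicate 1 or either SGA360+LPS library (log2 fold changes of −0.38 to −0.23, adjusted p of 0.0517 to 0.171). Slc30a1, which exports zinc across the plasma membrane, was at 56.99 and 50.99 CPM in vehicle, 42.7 and 40.01 with LPS and 54.3 and 54.7 with SGA360+LPS. Both LPS libraries lay below both vehicle libraries, while the SGA360+LPS libraries were back among the vehicle values (−0.39, adjusted p = 0.0206 for LPS). That call was lost on leaving out either LPS library or either SGA360+LPS library (log2 fold changes of −0.41 to −0.32, adjusted p of 0.0661 to 0.194). Slc39a14, an importer of zinc and iron with 3 transcript rows, had 10 and 0 counts in vehicle, against 28 and 23 with LPS (2.48, adjusted p = 0.063). It was called without vehicle replicate 1 (7.74, adjusted p = 1.66e-04) or 2 (1.47, adjusted p = 0.0289), and by DESeq2 and limma-voom. The first of these values rests on a vehicle count of 0 and depends on the prior count. Slc39a9, Slc39a3 and Slc39a7 (0.65, adjusted p = 0.301) did not pass. Summed over the class the level was 1446 and 1446 CPM in vehicle, 1984 and 2079 CPM with LPS and 1984 and 2048 CPM with SGA360+LPS. The falls numbered 0 without LPS replicate 1, and 1 when LPS replicate 2 or either SGA360+LPS library was left out.

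Metallothioneins, the small proteins that bind zinc and copper, were described as a list with the zinc-sensing factor Mtf1. Of its 3 tested genes 1 rose with LPS, where 19.4% of all genes tested rose. Mt2 went from 225 ± 32.9 to 369 ± 29.2 CPM (SD, n = 2), a log2 fold change of 0.71 (adjusted p = 2.81e-04). Mt1 stood at 0.18 (adjusted p = 0.157) and Mtf1 at 0.34 (adjusted p = 0.0524). Between SGA360+LPS and LPS Mt2 and Mt1 were at 0.10 and 0.09 and did not pass.

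The 22 members of the inorganic ion families had 4 rises (18.2%) and 6 falls (27.3%), against 19.4% and 17% of all genes tested. Slc4a7, which imports sodium with bicarbonate and so controls pH, stood at 44.4 and 53.3 CPM in vehicle, 129 and 138 with LPS and 122 and 115 with SGA360+LPS. The treated libraries were far above vehicle (log2 fold change 1.45, SE 0.105, adjusted p = 2.41e-06). Slc20a1, a phosphate importer with 2 rows, went from 50.6 and 51.3 to 92.98 and 96.3 CPM (0.89, adjusted p = 3.98e-05). Slc20a2, the other phosphate importer, rose by 0.37 and the sodium-potassium-chloride importer gene Slc12a2 by 0.42. Their calls were lost on leaving out either LPS library, vehicle replicate 1 or either SGA360+LPS library (log2 fold changes of 0.21 to 0.46, adjusted p of 0.0721 to 0.236) for Slc20a2 and on leaving out either LPS library or either SGA360+LPS library (log2 fold changes of 0.39 to 0.49, adjusted p of 0.0785 to 0.213) for Slc12a2.

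Among the falls, Slc26a11, an anion transporter, went from 33.97 and 49.6 to 8.38 and 7.76 CPM with LPS and was at 7.24 and 8.18 CPM with SGA360+LPS (log2 fold change −2.37, SE 0.215, adjusted p = 1.31e-05 for LPS). Slc9a9, a sodium/proton exchanger of endosomes, stood at 60.01 and 75.3 CPM in vehicle, 18.4 and 22.7 with LPS and 21.6 and 24.5 with SGA360+LPS (log2 fold change −1.71, SE 0.162, adjusted p = 1.80e-05). In both genes every treated library was below both vehicle libraries, although the vehicle replicates themselves differed. The potassium-chloride cotransporter gene Slc12a7 was at 111 and 84.8 CPM in vehicle and 57.5 and 58.2 CPM with LPS (−0.76, adjusted p = 0.00116). Its relative Slc12a9 fell by 0.55 on the log2 scale and lost its call on leaving out either LPS library, SGA360+LPS replicate 1 or vehicle replicate 1 (log2 fold changes of −0.65 to −0.38, adjusted p of 0.0505 to 0.198). The exchanger gene Slc9a4 fell by 0.70 and lost its call on leaving out either LPS library, vehicle replicate 1 or either SGA360+LPS library (log2 fold changes of −0.72 to −0.48, adjusted p of 0.0617 to 0.177). The scaffold gene Slc9a3r1 was at 521 and 518 CPM in vehicle and 369.9 and 338 CPM with LPS (−0.55, adjusted p = 1.57e-04). The class sum, which includes this gene, was 1234 and 1279 CPM in vehicle and 1117 and 1129 CPM with LPS. The mean of Slc9a3r1 fell by more CPM than that of the sum. Slc4a1ap, the adaptor gene, was at 34.5 and 48.1 CPM in vehicle and 47.6 and 47.4 CPM with LPS, with overlapping groups (log2 fold change 0.20, SE 0.151, adjusted p = 0.34). The rises numbered 2 without LPS replicate 1 or 2 or without SGA360+LPS replicate 1 or 2, and 8 without vehicle replicate 2.

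Of 8 carboxylate family genes 3 rose (37.5%) and 1 fell (12.5%), against 19.4% and 17% of all genes tested. Slc13a3, which imports succinate and other dicarboxylates with sodium, stood at 0.559 and 1.04 CPM in vehicle, 12.4 and 13.9 with LPS and 13.3 and 14.8 with SGA360+LPS. Its vehicle counts were only 5 and 10, against 93 and 127 with LPS (log2 fold change 4.00, SE 0.326, adjusted p = 5.94e-06). The gene reached 60 counts only with the treated libraries, so these values are a description. Slc16a10, a transporter of aromatic amino acids that belongs to this family by sequence, stood at 67.05 and 87.4 CPM in vehicle, 298 and 297 with LPS and 259 and 261 with SGA360+LPS (log2 fold change 1.95, SE 0.108, adjusted p = 3.27e-07). Its groups did not overlap, and the vehicle replicates differed more than the treated ones. It has 2 rows, of which 1 held nearly all counts. Slc16a7, a high-affinity pyruvate and lactate transporter, fell from 31.1 and 24.6 to 9.05 and 12.1 CPM (log2 fold change −1.38, SE 0.207, adjusted p = 4.90e-04), while the lactate transporter gene Slc16a1 was at 66.9 and 55.6 CPM in vehicle and 59.6 and 70.5 CPM with LPS with overlapping groups (log2 fold change 0.09, SE 0.147, adjusted p = 0.676). Slc16a9 did not pass (0.23, adjusted p = 0.434). Without vehicle replicate 2 a further fall was called, which made 2. Summed over the class the level was 234 and 240.3 CPM in vehicle, 470.1 and 491 CPM with LPS and 427 and 452 CPM with SGA360+LPS. Most of this rise was that of Slc16a10, a transporter of aromatic amino acids.

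**Figure D3:**
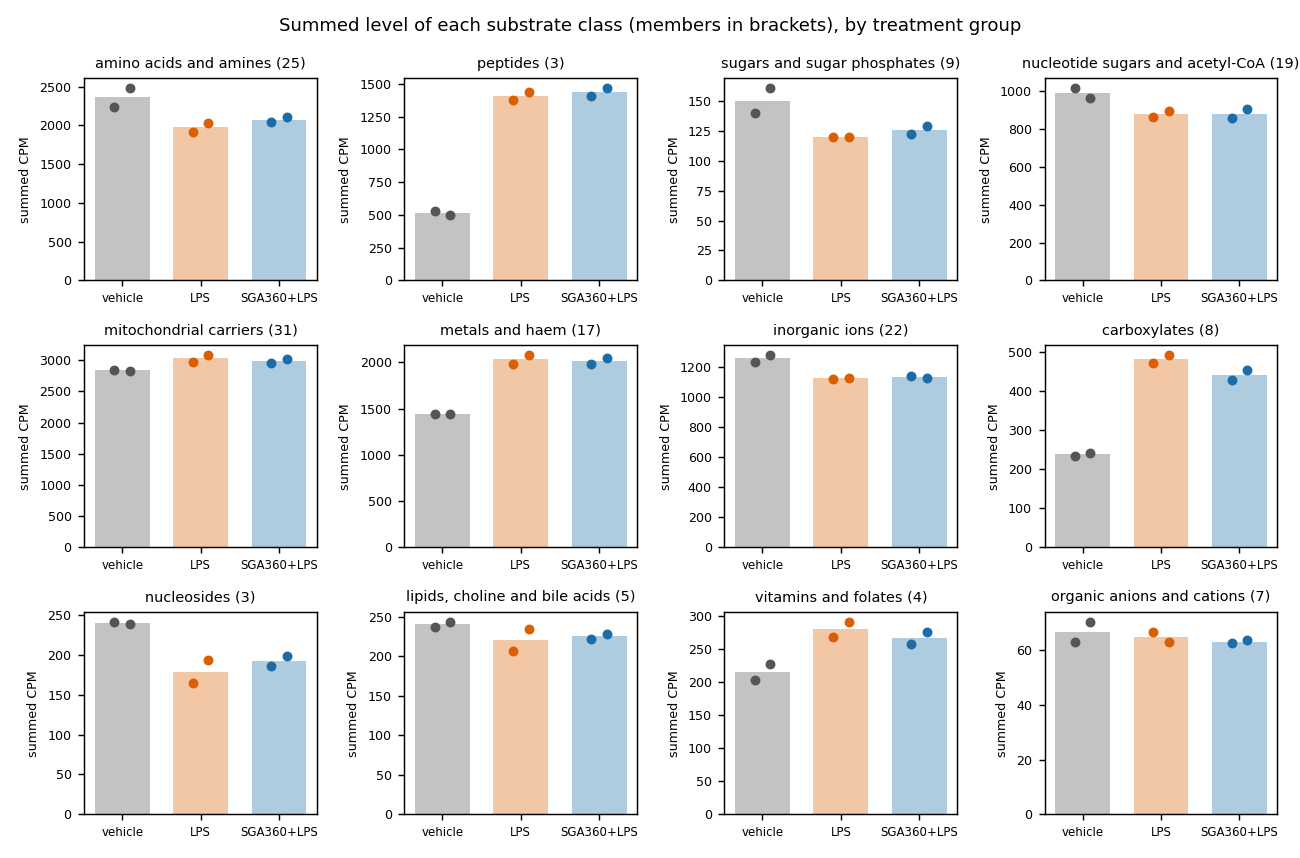
Summed CPM of all members of each of the 12 substrate classes (vertical axes, each from 0; number of members in brackets) by treatment group; bars are the mean of 2 libraries and points the libraries. All 4 LPS-treated libraries lay above both vehicle libraries for peptides, mitochondrial carriers, metals and haem, carboxylates, and vitamins and folates. They lay below both for amino acids, sugars, nucleotide sugars, inorganic ions, nucleosides, and lipids, choline and bile acids, while organic anions and cations overlapped. In mean CPM, the amino acid and inorganic ion sums fell by less than Slc6a6 and the scaffold gene Slc9a3r1 alone. Most of the carboxylate rise was that of Slc16a10, a transporter of aromatic amino acids.

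The 3 nucleoside transporter genes had 1 rise and 1 fall (19.4% of all genes tested rose and 17% fell). Slc29a3, a nucleoside exporter of lysosomes, fell from 174 and 176 CPM in vehicle to 84.2 and 106 with LPS and was at 105 and 113 with SGA360+LPS (log2 fold change −0.88, SE 0.107, adjusted p = 1.15e-04 for LPS). The vehicle replicates were nearly equal and the treated libraries all lay below them. Slc28a2, a sodium-coupled importer of purine nucleosides, was at 60.6 and 58.4 CPM in vehicle and 74.6 and 82.5 CPM with LPS (0.40, adjusted p = 0.00813) and lost its call on leaving out LPS replicate 2 (0.34, adjusted p = 0.0975). Slc29a2 was low, at 7.15 and 4.47 CPM in vehicle and 5.32 and 5.69 CPM with LPS, with overlapping groups (−0.07, adjusted p = 0.893).

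Among 5 genes for carriers of lipids, choline and bile acids 1 rose (20%) and 2 fell (40%), against 19.4% and 17% of all genes tested. Slc44a1, a choline transporter, stood at 19.3 and 22.4 CPM in vehicle, 45.9 and 61.2 with LPS and 47.5 and 48.1 with SGA360+LPS. All treated libraries lay above vehicle, and the LPS replicates differed from each other (log2 fold change 1.36, SE 0.158, adjusted p = 8.33e-05). The gene has 2 rows, of which 1 held nearly all counts. Slc27a1, a fatty acid transport protein, was at 106 and 132 CPM in vehicle and 72.6 and 82.5 CPM with LPS (−0.62, adjusted p = 0.00234). Slc27a6 was low, at 3.91 and 5.099 CPM in vehicle and 1.197 and 0.547 CPM with LPS (−2.38, adjusted p = 0.00938), and lost its call on leaving out LPS replicate 2 (−1.88, adjusted p = 0.148). Slc27a4 (−0.13, adjusted p = 0.438) and Slc10a6 (1.39, adjusted p = 0.308), a carrier of steroid sulfates, did not pass. Without vehicle replicate 2 the rises numbered 2, and without LPS replicate 2 the falls numbered 1.

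All 4 vitamin and folate family genes passed the test, 2 up (50%, against 19.4% of all genes tested) and 2 down (50%, against 17%). Slc23a2, the sodium-coupled importer of ascorbate, stood at 139 and 146 CPM in vehicle, 223 and 246 with LPS and 209 and 229.6 with SGA360+LPS, with the treated libraries all above vehicle (log2 fold change 0.72, SE 0.0814, adjusted p = 6.80e-05). Slc52a2, a riboflavin importer, rose by 0.49 (adjusted p = 0.0488) and lost its call on leaving out either LPS library, vehicle replicate 1 or either SGA360+LPS library (log2 fold changes of 0.27 to 0.56, adjusted p of 0.0779 to 0.209). Slc46a3, a lysosomal member of the folate transporter family, was at 28.8 and 38.2 CPM in vehicle, 1.86 and 1.09 with LPS and 2.41 and 2.69 with SGA360+LPS. Its counts were 258 and 367 in vehicle and 14 and 10 with LPS, the largest fall among the members (log2 fold change −4.52, SE 0.289, adjusted p = 9.16e-07). With 1 library left out the value ran from −4.90 to −4.14. Slc46a1, the proton-coupled folate importer, was at 13.9 and 12.3 CPM in vehicle and 7.85 and 6.34 CPM with LPS (−0.88, adjusted p = 0.0123) and lost its call on leaving out LPS replicate 2 (−0.72, adjusted p = 0.143). The rises numbered 1 when any library other than vehicle replicate 2 was left out, and the falls 1 without LPS replicate 2.

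Of 7 genes in the organic anion and cation families 0 rose and 1 fell (14.3%) by edgeR, against 19.4% and 17% of all genes tested. An unadjusted p under 0.05 was seen in 1 of them and in 4238 of the 9389 genes tested. DESeq2 called 0 rises and 0 falls, and limma-voom 0 rises and 1 fall. Slc17a9, which loads ATP into secretory vesicles, was at 6.59 and 7.91 CPM in vehicle, 3.59 and 3.83 with LPS and 5.08 and 6.497 with SGA360+LPS (−0.96, adjusted p = 0.0351 for LPS) and lost its call on leaving out either LPS library or either SGA360+LPS library (log2 fold changes of −0.996 to −0.90, adjusted p of 0.0754 to 0.189). The carnitine importer gene Slc22a5 was at 24.1 and 24.8 CPM in vehicle and 24.7 and 25.4 CPM with LPS (log2 fold change 0.04, SE 0.136, adjusted p = 0.865). Its relative Slc22a4, which carries ergothioneine, overlapped between groups too (log2 fold change −0.01, SE 0.207, adjusted p = 0.976). One rise was called without vehicle replicate 2.

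**Figure D4:**
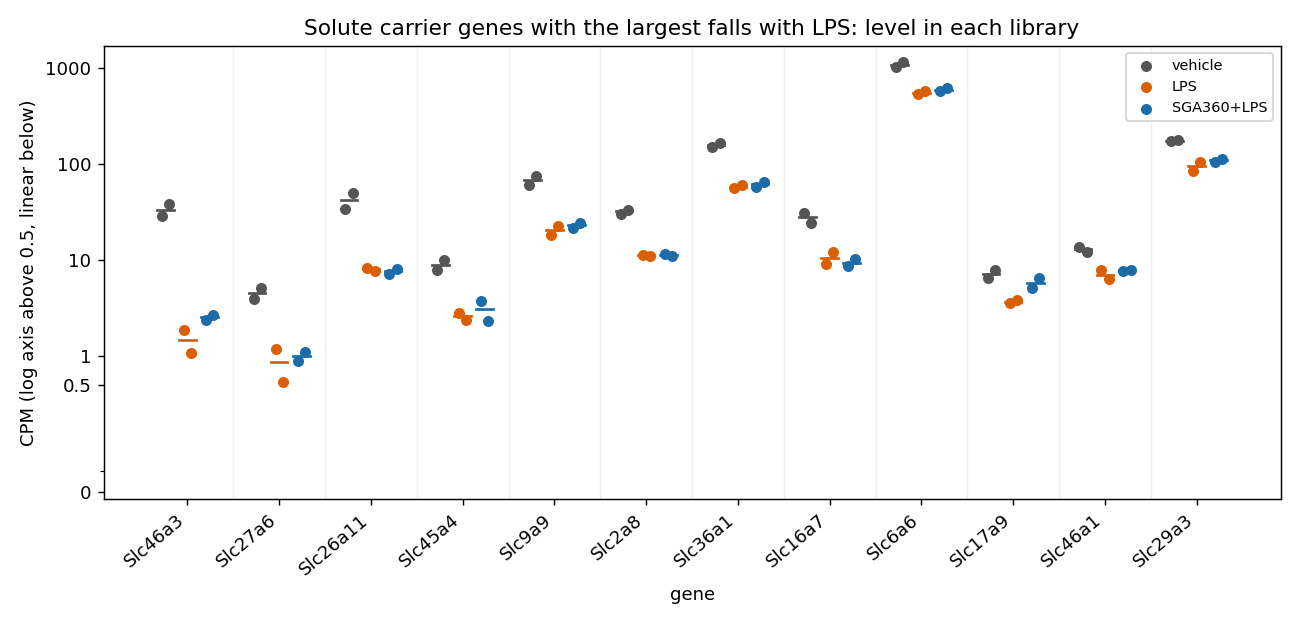
Level in CPM (vertical axis, logarithmic above 0.5 and linear below) of the 12 members with the largest falls past the threshold and separated groups, in each library; points are libraries, lines the mean of 2, colours the treatment groups. For each gene both LPS libraries lie below both vehicle libraries, and Slc46a3 shows the widest gap.

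SGA360+LPS was compared with LPS for the effect of the AHR ligand under endotoxin. No member passed the test: 0 of 153 were higher (0% of all genes tested) and 0 lower (0.0746% of all genes, 7 of 9389) by edgeR's quasi-likelihood test. An unadjusted p under 0.05 was seen in 1 member and in 276 of the 9389 genes tested. DESeq2 and limma-voom also called 0, with 1 and 1 at an unadjusted p under 0.05. The median log2 fold change of the members was 0.01 and its median absolute value 0.101, against 0.105 for all genes. Among the 55 members with a mean of 50 CPM or more, fitted values ran from −0.21 to 0.20 with a median SE of 0.0946. Among the 33 under 5 CPM they ran from −0.51 to 0.89 with a median SE of 0.585, so changes in these were measured with little precision. The spread between the vehicle libraries enters this test: when only the LPS and SGA360+LPS libraries were fitted, 13 members had an unadjusted p under 0.05 and 0 passed the adjustment. The share of all genes under 0.05 in that fit was not counted, so the 13 are no result about the members.

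The smallest unadjusted p was that of the zinc exporter gene Slc30a1. It stood at 42.7 and 40.01 CPM with LPS and 54.3 and 54.7 CPM with SGA360+LPS, against 56.99 and 50.99 CPM in vehicle. The SGA360+LPS libraries lay above both LPS libraries and within the vehicle range (log2 fold change 0.40, SE 0.111, adjusted p = 1, unadjusted p = 0.00497). Over the alternatives with all libraries or 1 left out, its adjusted p never passed the threshold, and the smallest was 0.186 without vehicle replicate 2. Slc46a3 was at 1.86 and 1.09 CPM with LPS and 2.41 and 2.69 with SGA360+LPS (log2 fold change 0.81, SE 0.377, adjusted p = 1), a small part of the distance to its vehicle level. Slc17a9 was at 3.59 and 3.83 CPM with LPS and 5.08 and 6.497 with SGA360+LPS (log2 fold change 0.64, SE 0.318, adjusted p = 1).

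The haem transporter gene Slc48a1 stood at 492 and 485 CPM with LPS and 531 and 547 CPM with SGA360+LPS (log2 fold change 0.14, SE 0.0704, adjusted p = 1). The mitochondrial carrier gene Slc25a39, which imports glutathione, was at 179 and 169.6 CPM with LPS and 193 and 194 with SGA360+LPS (log2 fold change 0.15, SE 0.0723, adjusted p = 1). Slc25a24 was lower, at 75.4 and 74.1 CPM with LPS and 62.98 and 66.3 with SGA360+LPS (log2 fold change −0.21, SE 0.0942, adjusted p = 1). For these 6 genes the LPS and SGA360+LPS libraries did not overlap, which held for 31 members in the higher direction (20.3%, against 19.9% of all genes) and 33 in the lower (21.6%, against 19.6%). For the 12 largest rises with LPS the log2 difference of SGA360+LPS from LPS ran from −0.51 (Slc7a2, SE 0.541) to 0.54 (Slc39a4, SE 0.2796), and 0 of the 12 passed. Among the abundant ones it was 0.03 for Slc15a3 (SE 0.0688), 0.01 for Slc25a37 (SE 0.0728), −0.20 for Slc16a10 (SE 0.101), −0.18 for Slc4a7 (SE 0.0992) and −0.16 for Slc31a1 (SE 0.0831).

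**Figure D5:**
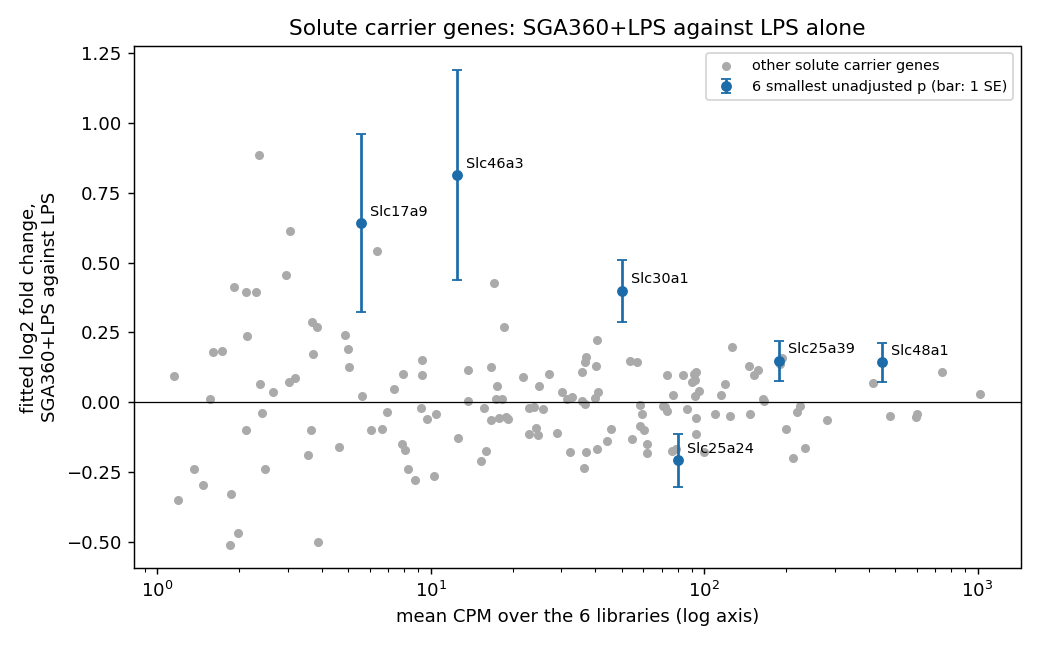
Fitted log2 fold change of SGA360+LPS against LPS (vertical axis) for each of the 153 members by its mean CPM over the 6 libraries (horizontal axis, logarithmic); blue points with bars of 1 SE are the 6 genes with the smallest unadjusted p, grey points the others. Values of abundant members stay close to 0, scatter widens at low levels, and none passed the adjusted threshold.

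The comparison of SGA360+LPS with vehicle shares the vehicle libraries with that of LPS with vehicle, so the values are given side by side and no overlap is read from them. With SGA360+LPS 33 of 153 members rose (17.9% of all genes tested rose) and 25 fell (15.2% of all genes). Slc15a3 stood at 1.66 on the log2 scale against 1.63 for LPS alone, Slc25a37 at 1.75 against 1.75, and Slc13a3 at 4.10 against 4.00. Slc16a10 was at 1.75 against 1.95 and Slc31a1 at 0.95 against 1.11. Among the falls, Slc46a3 was at −3.71 against −4.52, Slc26a11 at −2.44 against −2.37, Slc36a1 at −1.36 against −1.44 and Slc6a6 at −0.86 against −0.97. Slc1a4, a neutral amino acid transporter, and Slc35f5 were called in this comparison and not in that of LPS with vehicle. Slc1a4 stood at 11.4 and 16.6 CPM in vehicle, 18.1 and 19.5 with LPS and 24.1 and 21.3 with SGA360+LPS (0.69, adjusted p = 0.0226, against 0.42, adjusted p = 0.134 for LPS). Slc35f5 was at −0.30 (adjusted p = 0.0379) against −0.27, adjusted p = 0.0527. The other way round, 8 members were called with LPS and not with SGA360+LPS against vehicle. There Slc38a9 was at −0.46, adjusted p = 0.0697, Slc50a1 at −0.12, adjusted p = 0.472, Slc25a46 at 0.33, adjusted p = 0.0798 and Slc30a1 at 0.01, adjusted p = 0.936. Slc30a7 was at 0.29, adjusted p = 0.0949, Slc12a2 at 0.30, adjusted p = 0.136, Slc12a9 at −0.45, adjusted p = 0.0553 and Slc17a9 at −0.32, adjusted p = 0.451. A call in one comparison and not in the other is not a tested difference: that difference is the comparison of SGA360+LPS with LPS, in which none of these 10 genes passed. With 1 library left out the rises numbered 22 (without SGA360+LPS replicate 1 or 2) to 51 (without vehicle replicate 2), and the falls 14 (without SGA360+LPS replicate 1 or 2) to 33 (without vehicle replicate 2).

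Transporter genes outside the Slc names were read against the 19.4% of all genes tested that rose and the 17% that fell with LPS. Among 29 tested relatives of the superfamily under other names, 4 rose (13.8%) and 13 fell (44.8%) with LPS, with a median log2 fold change of −0.26. Ucp2, a mitochondrial carrier, was at −0.57, the lysosomal cholesterol transporter gene Npc1 at −0.61 and Mfsd12, a lysosomal cysteine importer, at −1.12. The organic anion transporter gene Slco3a1 (2.64), Hiat1 (0.29) and Mfsd2a (1.51) rose. Slco4a1, another organic anion transporter gene, rose too (2.99, SE 0.85), with only 0 and 7 counts in vehicle. Of 10 tested partner subunits and ion pumps 1 rose and 4 fell. Atp1b3, a subunit of the sodium pump, was at 0.50, while Ostm1 (−0.61) and Emb (−0.86), an ancillary protein of lactate transporters, fell. Of 27 tested genes of the ABC family, most of which are transporters that use ATP, 7 rose (25.9%), led in level by the cholesterol exporter gene Abca1 (0.86), Abcc1 (2.03) and Abcf1 (0.44), and 10 fell (37%), among them Abcg1 (−1.16) and Abca2 (−0.73). Abcf1 and Abce1 (0.46), both among the rises, are members of the family that act in translation and are not transporters. The macrophage culture holds these genes as well as those of other cells, and the part of each cell type was not tested.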

How the data were processed

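The deposited table held whole-number read counts per transcript, with exon lengths in bases, for 6 libraries. The authors aligned reads with TopHat2 2.0.13 and counted them with HTSeq 0.5.4p3 on the mm10 build, per the submitters' processing notes. For the strand setting, annotation release and handling of shared reads: not given in the sources used here. Counts deposited for several transcripts of a symbol were summed. Levels are CPM with TMM-scaled library sizes, and CPM per kilobase uses the deposited exon length.

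Genes were kept with edgeR's filterByExpr (minimum count 10), which left 9389. One edgeR quasi-likelihood model of 3 groups over 6 libraries, with 3 residual degrees of freedom, gave all comparisons, with Benjamini-Hochberg adjustment over those genes and a threshold of 0.05. The SE was derived from each fold change and its F statistic, as |log2 fold change| over the root of F. R 4.3.3, edgeR 4.0.16, limma 3.58.1 and DESeq2 1.42.0 were used, and the steps were tested on simulated data. Alternatives were RLE size factors, DESeq2, limma-voom, other filters, single-row symbols, the replicate block, only the groups compared, a threshold of 0.01 and leaving out each library.

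Genes were named by rule: the 12 largest called rises and 12 largest called falls whose groups do not overlap, in each class the 2 most abundant called members per direction and the 2 most abundant without a call, 26 transporters whatever their result, the 6 smallest unadjusted p-values between SGA360+LPS and LPS, and up to 3 called members per direction of the other lists. Other members were named after their values were seen. Some genes that the rule names are left out of the text. The members, classes and lists were chosen with earlier results of these data known. Libraries of a group were not duplicates: the mean chi-square per gene between them was 43.7 in vehicle, 6.14 with LPS and 4.12 with SGA360+LPS. Promoter sequences are from RefSeq (GRCm38.p6, the assembly of mm10).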

Additional observations from a re-analysis of the deposited data

How the results depend on the processing

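Of the 64 members called between LPS and vehicle, 35 kept their call in every alternative in which they were tested, 29 lost it without at least 1 library, and 0 changed sign. With 1 library left out, rises ran from 22 to 55 and falls from 16 to 38. For SGA360+LPS against vehicle they ran from 22 to 51 and from 14 to 33, and for SGA360+LPS against LPS both stayed at 0. At a threshold of 0.01, 44 of the 64 calls were left for LPS against vehicle, of which 18 were falls. For SGA360+LPS against vehicle 41 of 58 were left, of which 16 were falls. By DESeq2 LPS against vehicle had 34 rises and 23 falls, and SGA360+LPS against vehicle 30 and 19. Without the 5 symbols that are not transporters, an alternative chosen after seeing the data, LPS against vehicle gave 34 and 28, SGA360+LPS against vehicle 32 and 24, and the treatments 0. With only members of 20 or more vehicle and 40 or more treated counts, also chosen after seeing the data, they were 30 and 28, 28 and 24, and 0.

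The replicate block gave 34 rises and 29 falls for LPS against vehicle, 36 and 25 for SGA360+LPS against vehicle, and 0 and 0 for SGA360+LPS against LPS. With 2 replicate numbers the libraries share only a number: deviations of same-numbered libraries correlated at −0.004 (vehicle and LPS), 0.014 (vehicle and SGA360+LPS) and 0.198 (LPS and SGA360+LPS).

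Reversed values were seen in 9 genes named by the rule between LPS and vehicle and in Slc25a28, named outside it (−0.0091 to 0.408 with 1 library left out), none of them called in the main analysis, and the cause was not tested. With 1 library left out the log2 fold change ran from −0.0488 to 0.237 for Slc38a7, −0.105 to 0.201 for Slc39a9, −0.0223 to 0.249 for Slc16a1, −0.0182 to 0.566 for Slc16a9, −0.357 to 0.318 for Slc29a2, −0.301 to 0.0937 for Slc27a4, −0.193 to 0.226 for Slc22a4 and −0.742 to 0.168 for Slc2a3. Without the low-count filter Slc22a4 was at 0.0186. With only the groups compared Slc22a4 was at 0.0011, and with a mean of at least 5 CPM the value of Slc25a1, LPS vs vehicle, was −0.0057. Genes with several rows or under 5 CPM have no value in the settings that leave them out. Members under 5 CPM are limited by depth.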
